A study of Homo sapiens with 6 samples.

Results

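The genes described here are 9 that encode subunits of the Polycomb repressive complexes: EZH1, EZH2, EED and SUZ12 of complex 2 (PRC2), and RING1, RNF2, BMI1, CBX2 and CBX8 of complex 1 (PRC1). They were taken by name, without a threshold on their values, from a table of gene-level read counts with 63186 Ensembl gene identifiers, and all 9 were listed there. Of these, 8 passed a filter on low counts and were among the 15911 genes tested, and RING1 was not. The RNA came from RBE cells, an established human line of intrahepatic cholangiocarcinoma, which arises from bile ducts within the liver. In the si-Ctrl group (3 samples) the cells received a control siRNA, and in the si-CHAF1A group (3 samples) they received siRNA against CHAF1A, the large subunit of the chaperone CAF-1, which places histones H3 and H4 on newly copied DNA. Both groups were therefore transfected with an siRNA and a lipid reagent, at about 60% confluency, and were harvested 48 h later after a change of medium at 24 h. The labels give no siRNA sequence and do not say whether 1 or several were used, and a single cell line was studied. The samples of a group are called biological replicates without further detail, so a p-value here reflects only the spread among these 6 samples, part of which may be technical.

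Polycomb complexes keep developmental genes silent through histone marks. PRC2 methylates histone H3 on lysine 27 through EZH2 or its paralog EZH1, and needs EED, which binds the methylated lysine, and SUZ12, the scaffold of the complex. PRC1 places ubiquitin on histone H2A through RING1 or RNF2. In canonical PRC1 these ligases pair with BMI1 or PCGF2, and a chromobox protein such as CBX2 or CBX8 reads the methylated H3, whereas variant PRC1 uses other PCGF proteins with RYBP or YAF2. EZH2 is the form of cycling cells, and its transcription is known to follow E2F factors, while EZH1 is also found in cells that do not divide. BMI1 is best known for repressing the CDKN2A locus.

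The promoter windows of the 3 PRC2 genes with called or near-threshold differences and of BMI1 are shown first, since EZH2 is known as an E2F target and E2F words can be looked for in the letters. They come from RefSeq (GRCh38.p14), run 5′ to 3′ on the strand of the gene and are 300 bases long, and 7 of the 9 genes had an entry (EZH1, EZH2, EED, SUZ12, RING1, RNF2 and BMI1). The windows lie at chr7:148884242-148884541 on the minus strand for EZH2, at chr11:86244503-86244802 on the plus strand for EED, at chr17:31936757-31937056 on the plus strand for SUZ12 and at chr10:22320849-22321148 on the plus strand for BMI1. Capitals mark the E2F words TTTCGCGC, TTTGGCGC and TTTCCCGC and the CCAAT box, each sought on both strands, so that a CCAAT box on the opposite strand reads ATTGG.
EZH2: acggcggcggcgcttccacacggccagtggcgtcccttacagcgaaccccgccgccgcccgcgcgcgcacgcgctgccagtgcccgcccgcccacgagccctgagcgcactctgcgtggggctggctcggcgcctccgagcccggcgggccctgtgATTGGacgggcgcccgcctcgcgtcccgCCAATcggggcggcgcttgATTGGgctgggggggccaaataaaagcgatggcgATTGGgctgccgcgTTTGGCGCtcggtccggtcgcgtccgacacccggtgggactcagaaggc
EED: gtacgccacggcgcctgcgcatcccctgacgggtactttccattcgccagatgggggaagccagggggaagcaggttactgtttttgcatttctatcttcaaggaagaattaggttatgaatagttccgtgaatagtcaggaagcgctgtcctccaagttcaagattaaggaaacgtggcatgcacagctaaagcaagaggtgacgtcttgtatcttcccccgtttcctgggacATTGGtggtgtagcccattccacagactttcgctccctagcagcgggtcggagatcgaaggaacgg
SUZ12: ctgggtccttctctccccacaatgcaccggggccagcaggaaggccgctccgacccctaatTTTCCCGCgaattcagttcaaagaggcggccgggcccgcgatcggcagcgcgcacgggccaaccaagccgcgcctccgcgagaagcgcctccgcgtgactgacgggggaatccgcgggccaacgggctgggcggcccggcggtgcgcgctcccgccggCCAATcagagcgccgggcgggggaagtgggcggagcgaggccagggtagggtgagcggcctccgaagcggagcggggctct
BMI1: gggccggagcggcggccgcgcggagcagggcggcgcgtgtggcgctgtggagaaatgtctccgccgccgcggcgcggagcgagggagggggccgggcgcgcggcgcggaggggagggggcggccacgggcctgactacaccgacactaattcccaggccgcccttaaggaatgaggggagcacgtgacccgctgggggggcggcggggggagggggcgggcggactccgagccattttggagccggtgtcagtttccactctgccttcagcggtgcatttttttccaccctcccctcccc
Counted from the start site as base 1, the EZH2 window held TTTGGCGC from base 2, and 4 CCAAT boxes whose first bases lay 94, 66, 47 and 13 bases before the start site. The SUZ12 window held TTTCCCGC 189 bases and a CCAAT box 31 bases before its start site, and also a cell cycle homology word (TTTGAA, on the opposite strand) 173 bases before it. The EED window held a CCAAT box 16 bases before the start site and none of the E2F words. The BMI1 window held neither, nor did the other window listed for BMI1. Of the 35116 promoter windows of the same length in the table, 2.74% held any of the 3 E2F words, 34.6% held a CCAAT box and 15.2% held TTTGAA. The GC content was 74.7% for EZH2, 73.0% for SUZ12, 73.3% for BMI1 and 52.3% for EED, against a median of 58.7% over all windows. No E2F word or CCAAT box was found for EZH1, RING1 or RNF2, or in the other window listed for EZH2. A match is a stretch of letters, not a measured site.

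CHAF1A itself (ENSG00000167670, chromosome 19, 4402662 to 4445018, GRCh38) gave 51.5, 59.8 and 51.0 CPM (read counts divided by the effective size of each library) under si-Ctrl and 11.1, 12.9 and 11.2 CPM under si-CHAF1A, which was 4.61-fold lower (log2 fold change of si-CHAF1A over si-Ctrl -2.21 ± 0.10 SE, edgeR quasi-likelihood adjusted p = 2.57e-10). Library totals ran from 15643381 to 20918997 counts. On the principal components of log2 CPM, si-Ctrl library 2 stood apart from the other controls, at -29.6 on the second component against 14.9 and 13.9. It was the highest or lowest of the controls for 8 of the 8 tested Polycomb genes and for 79.0% of all tested genes, and results that rest on it are given with and without it. The biliary keratin and epithelial markers of the line were high (7 markers summing to 4125.5 to 4790.5 CPM in si-Ctrl and 5325.4 to 5847.4 in si-CHAF1A), while leukocyte and hepatocyte markers summed to at most 0.768 CPM in any library. The 3 fibroblast markers summed to 8.66 to 11.5 CPM in si-Ctrl and 15.7 to 35.3 CPM in si-CHAF1A and the 2 endothelial ones to 2.06 to 3.13 and 3.37 to 3.80 CPM, and their part in the results was not tested. Among them PDGFRB rose 4.11-fold (edgeR adjusted p = 4.56e-06) and was higher in every si-CHAF1A library than in any control, whereas COL1A2 had 92 counts in si-CHAF1A library 1 against 3 and 1 in the other knockdown libraries and 1, 0 and 0 in si-Ctrl. The 9 Polycomb genes are called core subunits from here on. Without si-CHAF1A library 1 the 8 tested ones gave 0 higher and 4 lower, beside 14.2% higher and 14.5% lower over all tested genes. That fit does not remove the rise of PDGFRB, which was at 4.31 and 5.39 CPM in si-CHAF1A libraries 2 and 3. In whole-culture RNA, fewer cells of one kind and less RNA per cell cannot be told apart.

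Of the 8 tested subunits, 4 fell on CHAF1A knockdown (BMI1, CBX8, EED and EZH2), none rose and 4 did not pass the test (SUZ12, RNF2, EZH1 and CBX2). Over all tested genes 19.3% were called lower, 18.5% higher and 37.8% in either direction (edgeR, Benjamini-Hochberg adjusted p under 0.05). That balance depended on the scaling: with upper-quartile factors 16.1% were lower and 21.6% higher, and with library size only 15.4% and 21.7%, while the core subunits stayed at 0 higher and 4 lower. The members' median log2 fold change was -0.23, beside 0.00 over all genes. At an unadjusted edgeR p under 0.05, 0 were higher and 5 lower. DESeq2 also gave 0 higher and 4 lower, with 17.0% of all tested genes higher and 17.8% lower. The 2 groups of libraries did not overlap for the same 4 genes that fell, and 48.2% of all tested genes did not overlap. Without si-Ctrl library 2 the count was 1 higher (CBX2) and 5 lower (SUZ12 added), and the share called over all genes was 43.8%. All of these differences were under 2-fold. The plot of CPM by library shows each of these values.

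**Figure D1:**
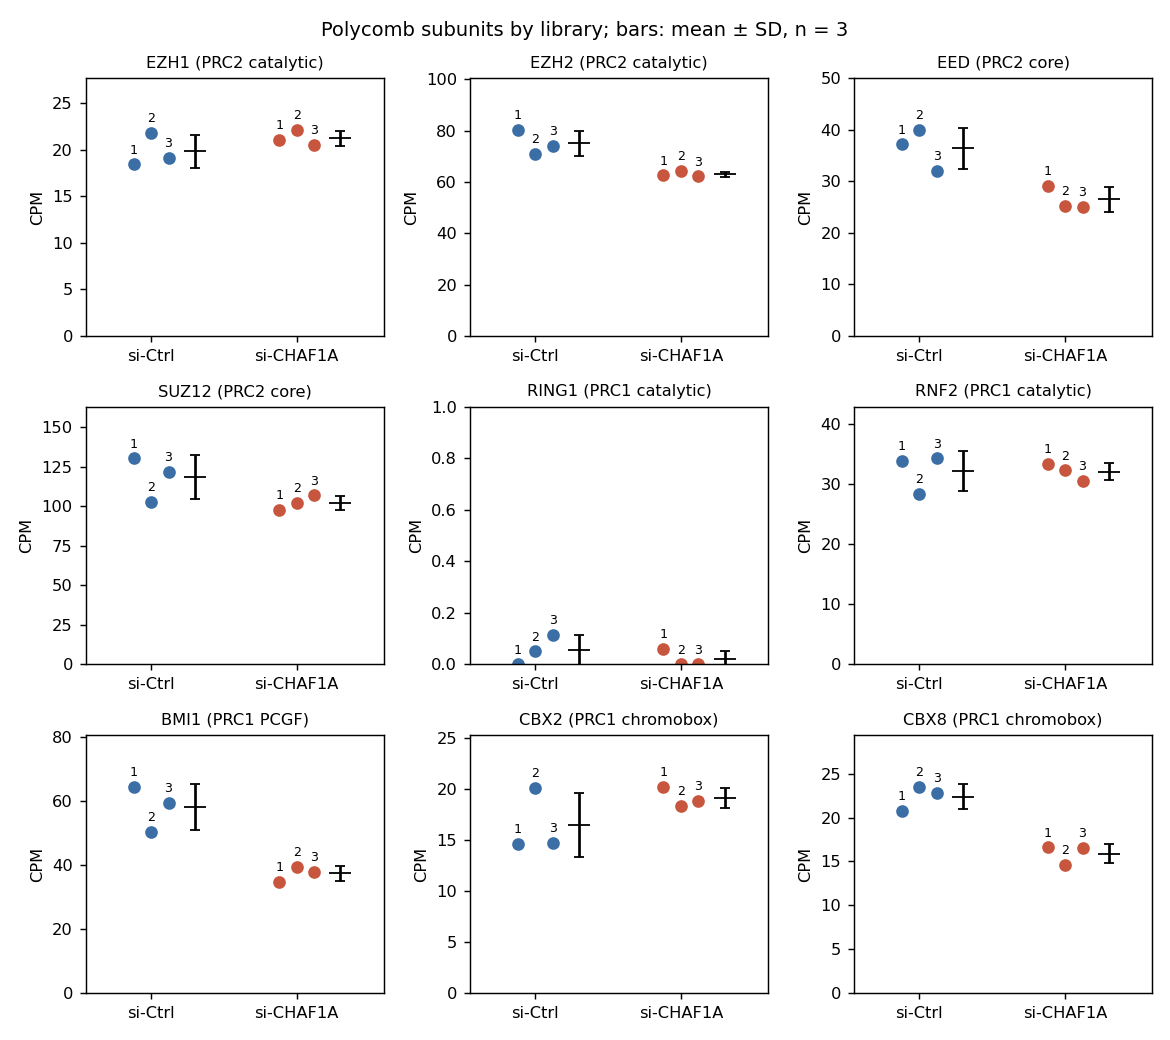
Each panel plots 1 Polycomb gene, with CPM on the y axis (scaled with TMM factors) and the group on the x axis; numbered points are libraries and the bars beside them are the mean ± SD of 3 libraries. EZH2, EED, BMI1 and CBX8 lie lower in all si-CHAF1A libraries than in any si-Ctrl library, the other tested genes overlap, and RING1, on an axis of its own that ends at 1 CPM, is near 0 in every library.

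EZH2, the main H3 lysine 27 methyltransferase (ENSG00000106462, chromosome 7, 148807383 to 148884321), gave 80.3, 70.8 and 74.2 CPM under si-Ctrl (libraries 1 to 3) and 62.6, 64.3 and 62.2 CPM under si-CHAF1A. Every knockdown library lay below every control library, and the knockdown libraries lay close together. The means were 75.1 ± 4.78 and 63.0 ± 1.09 CPM (SD, n = 3), a fall of 1.19-fold (-0.25 ± 0.07 SE on the log2 scale, adjusted p = 0.0106 by edgeR). The call is a narrow one: it was lost without si-Ctrl library 1 (adjusted p = 0.055) and without si-CHAF1A library 3 (adjusted p = 0.0541), with the log2 fold change at -0.21 and -0.24. In the same comparison 11 of 13 proliferation markers were lower and none higher. Over all tested genes 19.3% were lower and 18.5% higher. The 1 marker higher at an unadjusted p under 0.05 was PCNA, at 131.3 ± 6.74 and 145.1 ± 4.17 CPM (edgeR adjusted p = 0.0955). With upper-quartile factors, library size only or the stricter filter the count was 1 higher and 11 lower. In those fits 21.6% to 22.8% of all genes were higher and 15.4% to 22.3% lower. The markers had a median log2 fold change of -0.50. Among these, the cell cycle antigen MKI67 went from 658 ± 40.9 to 341 ± 16.1 CPM and cyclin A2 (CCNA2) from 70.1 ± 1.94 to 34.7 ± 0.857 CPM. Topoisomerase TOP2A and cyclin B1 (CCNB1) fell by 0.88 and 0.90 on the log2 scale. E2F1 itself was at a log2 fold change of -0.07 (adjusted p = 0.537). The part of these changes in the fall of EZH2 was not tested.

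EZH1, the paralog with weaker methyltransferase activity (ENSG00000108799, chromosome 17, 42700275 to 42745049), was at 18.4, 21.8 and 19.1 CPM in si-Ctrl and at 21.0, 22.1 and 20.5 CPM in si-CHAF1A. The groups overlapped, with si-Ctrl library 2 inside the knockdown range. Its log2 fold change was 0.10 ± 0.10 SE (edgeR adjusted p = 0.46). Per kilobase of annotated exon, EZH1 made up 12.9%, 16.6% and 14.3% of the EZH1 and EZH2 total in the si-Ctrl libraries and 17.8%, 18.2% and 17.6% in the si-CHAF1A libraries. The share was higher in all 3 knockdown libraries than in any control, by 3.28 percentage points (14.6 ± 1.85% against 17.9 ± 0.309%, SD, n = 3). The exact two-sided permutation test gave p = 0.1, the smallest value that 3 against 3 libraries allow, so this design cannot place the shift past 0.05.

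EED, the subunit that binds trimethylated lysine 27 (ENSG00000074266, chromosome 11, 86244544 to 86278813), was at 37.2, 40.0 and 32.1 CPM in si-Ctrl and at 29.2, 25.2 and 25.1 CPM in si-CHAF1A. The 2 groups were separate. The means of 36.4 ± 4.01 and 26.5 ± 2.37 CPM (SD, n = 3) amount to a 1.37-fold fall (-0.46 ± 0.10 SE on the log2 scale, adjusted p = 0.00186 by edgeR). Leaving out single libraries moved the log2 fold change between -0.55 and -0.39 and kept EED past the test each time.

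SUZ12, the scaffold of PRC2 (ENSG00000178691, chromosome 17, 31937018 to 32001045), was at 130.3, 103.0 and 121.7 CPM in si-Ctrl and at 97.7, 102.1 and 106.9 CPM in si-CHAF1A. The groups overlapped only through si-Ctrl library 2. Over all libraries the log2 fold change was -0.21 ± 0.08 SE and did not pass the test (edgeR adjusted p = 0.0561). Without si-Ctrl library 2 it was -0.31 (edgeR adjusted p = 1.91e-06), and leaving out si-Ctrl library 1 gave -0.14 (edgeR adjusted p = 0.233). The pseudogene SUZ12P1 held 2, 4 and 3 counts in si-Ctrl and 8 in each si-CHAF1A library, beside 11525 counts of SUZ12 in all.

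Within PRC1, the catalytic subunits could be followed through RNF2 alone. RNF2, the ubiquitin ligase also called RING1B (ENSG00000121481, chromosome 1, 185045364 to 185102608), was at 33.9, 28.4 and 34.3 CPM in si-Ctrl and at 33.4, 32.3 and 30.6 CPM in si-CHAF1A. All 3 knockdown libraries lay inside the control range. The log2 fold change was 0.00 ± 0.09 SE (edgeR adjusted p = 0.988), and its sign depended on the setting, within -0.09 to 0.05. RING1 (ENSG00000204227, chromosome 6, 33208495 to 33212722) had 0, 1 and 2 counts in the si-Ctrl libraries and 1, 0 and 0 in the si-CHAF1A libraries, and no fold change is given.

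The low count of RING1 was shared by its surroundings. Its 6 nearest protein-coding neighbours had 1 to 14 counts each over the 6 libraries. One of them, RPS18, encodes a ribosomal protein that every cell needs, and it had 14 counts where the other 72 ribosomal protein genes had a median of 45236. In the stretch of chromosome 6 around it (genes from 29044213 to 33329286), 90.1% of 171 coding genes had under 30 counts in all, against 31.2% of coding genes in the whole table. The same held around PCGF2, the paralog of BMI1, which had 4 counts in all: 5 of its 6 neighbours were under 30 counts, including the proteasome gene PSMB3 at 0. The low counts of RING1 and PCGF2 in this table therefore do not show that RBE cells lack these transcripts, and the same applies to the PRC2 partners EPOP (0 counts) and PHF1 (38 counts) in or next to these stretches. The cause of the low counts was not tested.

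BMI1, the PCGF subunit of canonical PRC1 (ENSG00000168283, chromosome 10, 22321211 to 22331484), had the largest fall of the 8 tested subunits. Its level was 64.5, 50.5 and 59.6 CPM in si-Ctrl and 34.7, 39.4 and 38.0 CPM in si-CHAF1A. The lowest control library stood well above the highest knockdown library. The means were 58.2 ± 7.11 and 37.4 ± 2.44 CPM (SD, n = 3), a 1.55-fold fall (-0.64 ± 0.09 SE on the log2 scale, adjusted p = 6.66e-05 by edgeR). Only 5.94% of the 15911 tested genes had a fold change as low or lower. BMI1 stayed past the test in all 14 alternatives run, with the log2 fold change between -0.74 and -0.56. The readthrough gene COMMD3-BMI1, which joins BMI1 to its upstream neighbour, shares 1000 bases of exon with BMI1 and was listed at 0 in all libraries, so reads from it could have been counted to either gene or to none. COMMD3 itself was also lower, at 138, 147 and 179 counts against 100, 101 and 103 (log2 fold change -0.59, edgeR adjusted p = 0.00502).

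The ratio of BMI1 to RNF2 counts was 1.9, 1.78 and 1.74 in si-Ctrl and 1.04, 1.22 and 1.24 in si-CHAF1A. The groups did not overlap, whereas they did for the ratio of the PRC2 partners EED and SUZ12 (0.312 ± 0.0665 against 0.260 ± 0.0343, SD, n = 3). The exact two-sided permutation p was 0.1 for the first, the smallest possible, and 0.3 for the second, and both ratios were chosen after their values were seen. The genes whose log2 CPM ran most closely with BMI1 over the 6 libraries were SRSF11, a splicing regulator (Pearson r 0.9997), NUP107, a nuclear pore scaffold (0.9993), and WASHC4, a subunit of the endosomal WASH complex (0.9986). Their log2 fold changes were -0.39, -0.48 and -0.63. These correlations are a description over 6 libraries in 2 groups, so that the difference between the groups enters each of them.

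CBX8, a chromobox reader (ENSG00000141570, chromosome 17, 79792132 to 79801683), was at 20.8, 23.5 and 22.8 CPM in si-Ctrl and at 16.6, 14.6 and 16.5 CPM in si-CHAF1A. The groups were separate, and the means of 22.4 ± 1.41 and 15.9 ± 1.13 CPM (SD, n = 3) correspond to a 1.4-fold fall (-0.49 ± 0.10 SE on the log2 scale, adjusted p = 0.00105 by edgeR). CBX2 lies 4149 bases away on the opposite strand (ENSG00000173894, chromosome 17, 79778132 to 79787983) and did not pass the test. Its level was 14.6, 20.1 and 14.7 CPM in si-Ctrl and 20.2, 18.3 and 18.8 CPM in si-CHAF1A. Only si-Ctrl library 2 reached the knockdown range. Its log2 fold change was 0.21 ± 0.12 SE (edgeR adjusted p = 0.207) with all libraries and 0.37 (edgeR adjusted p = 0.00325) without si-Ctrl library 2, and 0.13 and 0.12 (edgeR adjusted p = 0.504 and 0.53) without si-Ctrl library 1 and 3. The ratio of CBX8 to CBX2 counts, chosen after its values were seen, was 1.42, 1.17 and 1.55 in si-Ctrl and 0.826, 0.799 and 0.881 in si-CHAF1A. It was below 1 in each knockdown library and in no control library (exact two-sided permutation p = 0.1, the smallest possible).

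**Figure D2:**
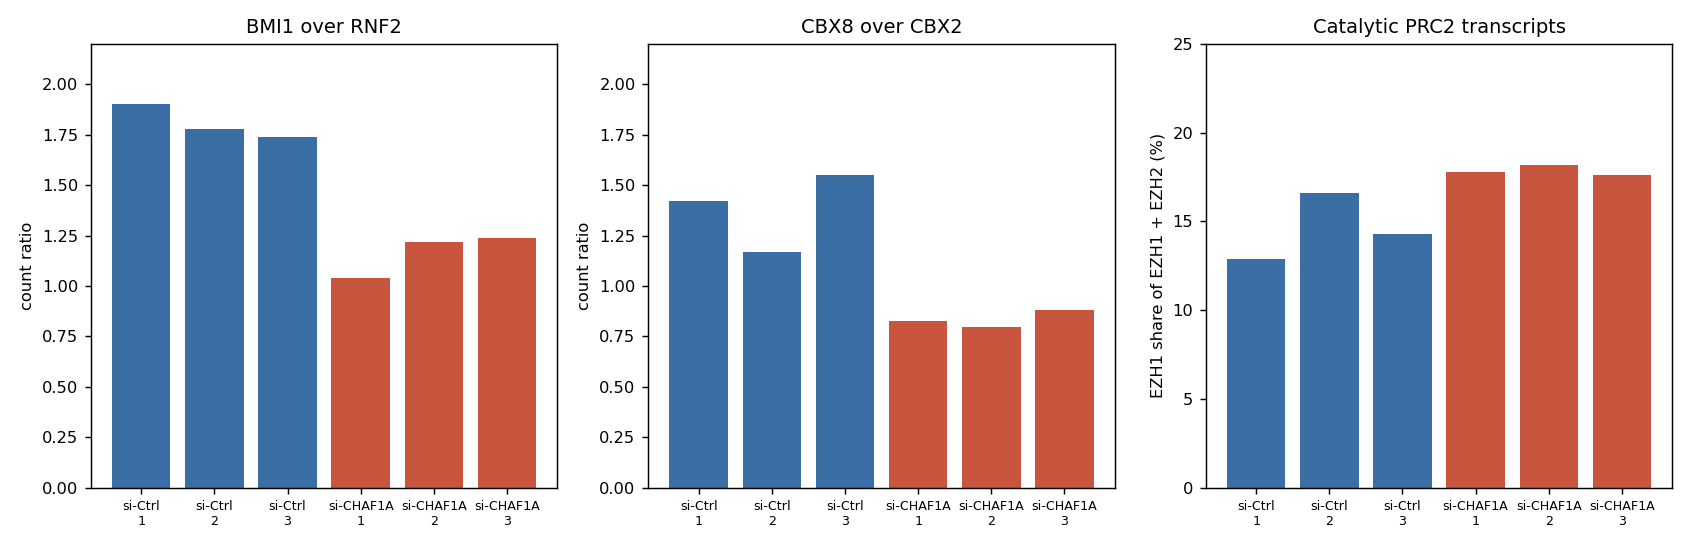
Bars give, for each library, the ratio of BMI1 to RNF2 counts (left), the ratio of CBX8 to CBX2 counts (middle) and the EZH1 share (%) of EZH1 and EZH2 per kilobase of exon (right), with si-Ctrl in blue and si-CHAF1A in red. Both ratios are lower in every si-CHAF1A library than in any si-Ctrl library, and the EZH1 share lies between 12.9% and 16.6% in si-Ctrl and between 17.6% and 18.2% in si-CHAF1A.

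To compare levels between genes, CPM were divided by the length of annotated exon (RPKM). In si-Ctrl the order was SUZ12 (18.1 ± 2.13 RPKM), EZH2 (16.6 ± 1.06), BMI1 (13.6 ± 1.66), RNF2 (7.91 ± 0.809), CBX8 (5.37 ± 0.339), EED (5.19 ± 0.572), CBX2 (2.90 ± 0.553) and EZH1 (2.83 ± 0.254), with n = 3 and SD throughout. Libraries of neighbours in this order overlapped for SUZ12 and EZH2, for CBX8 and EED, and for CBX2 and EZH1. EZH2 transcripts thus outnumbered EZH1 transcripts per kilobase in every library. In si-CHAF1A the order was the same, but BMI1 (8.72 ± 0.570 RPKM) now overlapped RNF2 (7.88 ± 0.343 RPKM). SUZ12 and EZH2 no longer overlapped there, at 15.6 ± 0.702 and 13.9 ± 0.241 RPKM. The order depends on which length is used: with the longest annotated transcript EED stood next after BMI1, at 13.2 RPKM in si-Ctrl and 9.58 in si-CHAF1A, and EZH1 stood above CBX2 in both groups.

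**Figure D3:**
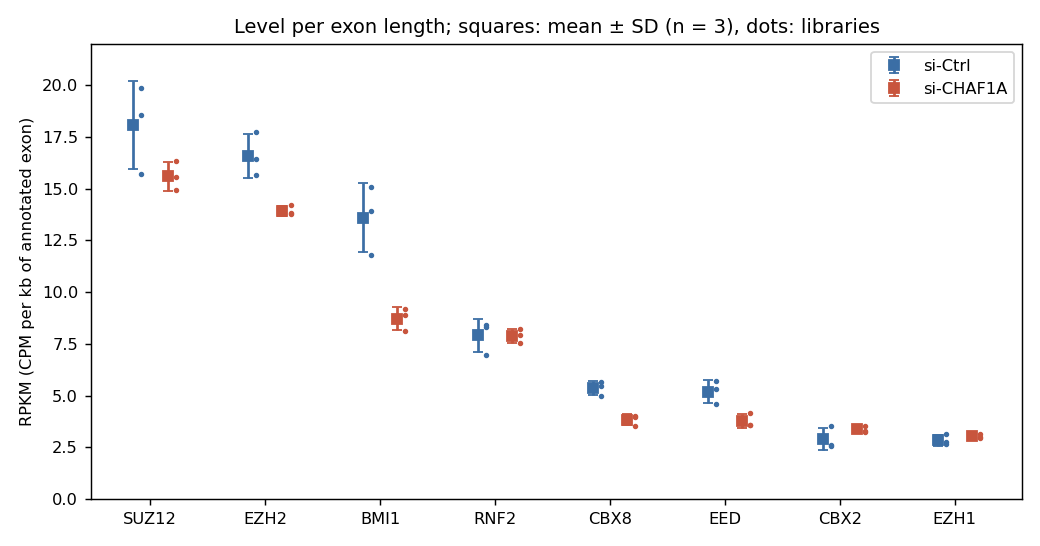
RPKM (CPM per kilobase of annotated exon, y axis) of the 8 tested Polycomb genes, ordered by their level in si-Ctrl; squares and bars are the mean ± SD of 3 libraries and small dots are the libraries, si-Ctrl in blue and si-CHAF1A in red. BMI1 drops from 13.6 to 8.72 RPKM, next to RNF2 at 7.91 and 7.88 RPKM.

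The other PRC2 subunits, listed here as partners, changed in both directions. Of 11 listed partners 8 were tested, of which 3 rose and 3 fell, with a median log2 fold change of -0.12 (over all tested genes 18.5% rose and 19.3% fell). JARID2, a cofactor that helps bring PRC2 to its targets, was at 17.5, 22.9 and 16.4 CPM in si-Ctrl and 35.7, 35.6 and 29.6 CPM in si-CHAF1A, a 1.77-fold rise (0.82 ± 0.12 SE on the log2 scale, adjusted p = 6.8e-05 by edgeR). PHF19, a Polycomb-like protein that tethers PRC2 to CpG islands, was at 160.4, 180.5 and 167.5 CPM against 113.4, 108.0 and 116.8 CPM, a 1.5-fold fall (-0.59 ± 0.07 SE on the log2 scale, adjusted p = 6.56e-06 by edgeR). Neither gene's groups overlapped. LCORL, which like LCOR encodes a PALI subunit of PRC2, had the largest fall of the list, from 35.1 ± 5.73 to 16.8 ± 2.54 CPM (log2 fold change -1.06, edgeR adjusted p = 1.07e-05), and LCOR rose by 0.50 on the log2 scale (adjusted p = 7.1e-04). The histone-binding pair RBBP4 and RBBP7 also parted: RBBP7 fell by 0.40 (adjusted p = 1.8e-04) and RBBP4 rose by 0.24 (adjusted p = 0.00869, or 0.0617 without si-CHAF1A library 2). RBBP4 and RBBP7 are counted with the partners here, so the counts given for the core subunits leave them out. Both belong to other histone complexes too, and RBBP4 is the small subunit of CAF-1. MTF2 and AEBP2, at log2 fold changes of -0.29 and 0.04, did not pass the test.

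Among the other canonical PRC1 subunits 8 of 10 were tested, 1 rose and 1 fell, and the median log2 fold change was -0.08. Each call is 12.5% of the tested list, beside 18.5% higher and 19.3% lower over all tested genes. The one that rose was CBX6, at 57.9, 65.5 and 64.1 CPM in si-Ctrl and 94.2, 98.1 and 93.8 CPM in si-CHAF1A (0.61 ± 0.07 SE on the log2 scale, adjusted p = 6.41e-06 by edgeR). SCML2, a sterile alpha motif protein of PRC1, was low and fell by 0.44 on the log2 scale (adjusted p = 0.0129), a call that was lost without si-CHAF1A library 2. The polyhomeotic genes PHC1, PHC2 and PHC3, which link PRC1 complexes to each other, were at -0.17, -0.05 and 0.01. CBX7 was at -0.16 (adjusted p = 0.38).

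Of the 21 variant PRC1 subunits, all tested, 2 rose and 5 fell, with a median log2 fold change of -0.02. That is 9.52% and 23.8%, beside 18.5% and 19.3% of all tested genes. KDM2B, which binds unmethylated CpG islands and brings PCGF1 complexes there, was at 21.9, 23.0 and 19.9 CPM in si-Ctrl and 39.4, 40.9 and 40.8 CPM in si-CHAF1A, a 1.87-fold rise (0.90 ± 0.09 SE on the log2 scale, adjusted p = 8.95e-07 by edgeR). E2F6, the DNA-binding factor of PCGF6 complexes, moved the other way by about as much, from 36.5, 32.5 and 33.8 CPM to 18.7, 18.1 and 18.7 CPM (-0.89 ± 0.09 SE on the log2 scale, adjusted p = 1.33e-06 by edgeR). PCGF6 itself fell by 0.64 (adjusted p = 8.65e-04), the deubiquitinase USP7 by 0.51 (adjusted p = 1.02e-05), DCAF7 by 0.28 (adjusted p = 0.00244) and PCGF1 by 0.36 (adjusted p = 0.0232, a call lost with library size only and without si-Ctrl library 3 or si-CHAF1A library 1 or 2), all on the log2 scale. YAF2, which replaces CBX proteins in variant PRC1, rose by 0.36 (adjusted p = 0.00602). Without si-Ctrl library 2 the count in this list was 5 higher and 7 lower, in a fit that called 43.8% of all tested genes instead of 37.8%.

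Genes that remove Polycomb marks gave 4 higher and 2 lower of 13 tested (14 listed), with a median log2 fold change of 0.00. That is 30.8% and 15.4%, beside 18.5% and 19.3% of all tested genes. The H3 lysine 27 demethylases KDM6B and KDM6A rose, KDM6B from 30.7 to 40.3 CPM (log2 fold change 0.39, edgeR adjusted p = 0.0039) and KDM6A from 58.4 to 70.4 CPM (0.27, edgeR adjusted p = 0.0117, lost without si-CHAF1A library 3). In the BAP1 complex, which takes ubiquitin off H2A, FOXK2 rose by 0.34 (adjusted p = 0.00138) and MBD6 by 0.30 (adjusted p = 0.0359, lost without library 1 or 3 of either group), and HCFC1 fell by 0.37 (adjusted p = 0.00149). USP16, another H2A deubiquitinase, fell by 0.25 (adjusted p = 0.0283), a call lost in 8 settings, among them leaving out any single library except si-Ctrl library 2. Without si-CHAF1A library 3 the list's count was 2 higher and 1 lower, in a fit that called 28.9% of all tested genes instead of 37.8%. Over the partner and mark-removal lists together 10 of 50 tested genes rose and 11 fell, shares near the 18.5% and 19.3% of all tested genes.

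**Figure D4:**
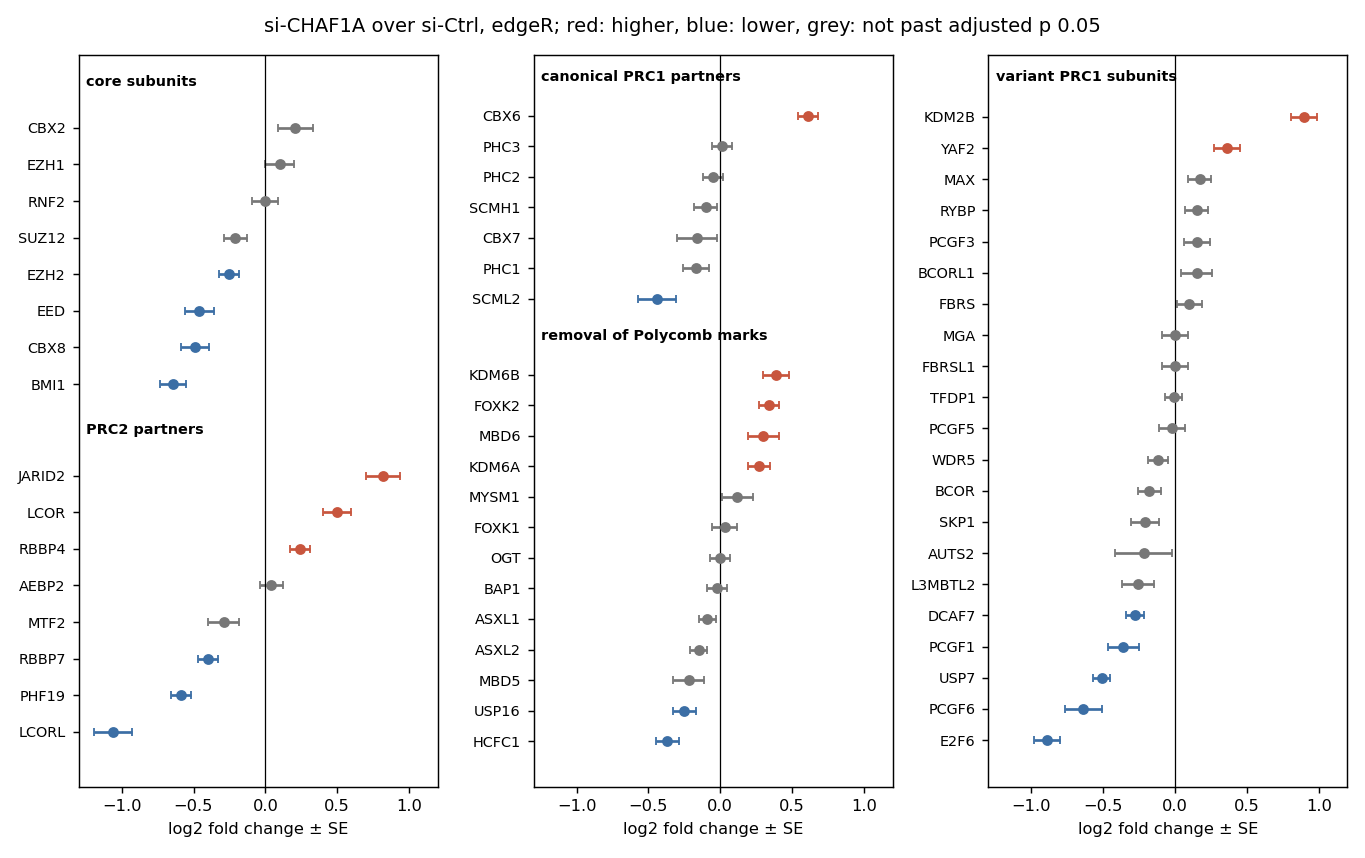
Log2 fold change of si-CHAF1A over si-Ctrl (x axis, points with bars of ± 1 SE) for genes tested in 5 Polycomb groups; red points are higher and blue points lower at an edgeR adjusted p under 0.05, grey points did not pass. The core subunits run from BMI1 at -0.64 to CBX2 at 0.21, and the largest changes of the partners are KDM2B at 0.90 and LCORL at -1.06.

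Genes known as Polycomb targets were mostly near 0 in both groups. Of 39 HOX genes 5 were tested, none rose or fell (1 higher and 0 lower at an unadjusted p under 0.05, and 0 with DESeq2), and the median log2 fold change was 0.09. Over all tested genes 37.8% were called by edgeR and 34.7% by DESeq2. HOXB5 was nearest the threshold at 0.49 (edgeR adjusted p = 0.0938). The 34 untested HOX genes had at most 46 counts each over the 6 libraries, and 12 had none. Together they held 32, 36 and 38 counts in the si-Ctrl libraries and 54, 44 and 49 in the si-CHAF1A libraries. These sums of raw counts did not overlap between the groups, and the difference was not tested. Without the low-count filter, edgeR called 17.2% of all fitted genes. The 27 HOX genes in that fit gave 0 calls (1 higher and 1 lower at an unadjusted p under 0.05). For the genes with few counts, this neither shows nor excludes a difference.

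Of 89 other listed targets, mostly developmental genes, 25 were tested, 7 rose and 4 fell, with a median log2 fold change of 0.12. That is 28.0% and 16.0%, beside 18.5% and 19.3% of all tested genes. SHH, the hedgehog ligand, was at 29.1, 36.4 and 35.7 CPM in si-Ctrl and 55.7, 52.3 and 56.7 CPM in si-CHAF1A (0.70 ± 0.09 SE on the log2 scale, adjusted p = 1.92e-05 by edgeR). PITX1, a homeodomain factor of the hindlimb, was at 7.16, 8.29 and 8.32 CPM against 15, 12.1 and 15.9 CPM (0.85 ± 0.13 SE, edgeR adjusted p = 1.07e-04). Both genes were higher in every knockdown library than in any control library. ALX4, a homeobox gene of skull development, had 2, 2 and 4 counts in si-Ctrl and 20, 17 and 21 in si-CHAF1A (2.82 ± 0.48 SE on the log2 scale, adjusted p = 2.42e-04 by edgeR), a value that rests on 8 control counts. DLX4 and SIM2 rose by 0.86 and 0.99 from low levels (adjusted p = 0.00556 and 0.0184). The kidney and pharyngeal factors PAX2 and PAX9 fell by 0.35 and 0.66 (adjusted p = 0.0122 and 0.0189), and IRX3 fell by 0.54 (adjusted p = 0.0215). Leaving out 1 library ended the call of PAX2 and of IRX3 in 1 setting each (without si-CHAF1A library 2) and of SIM2 and PAX9 in 2 each (without si-Ctrl library 3 for both, without si-CHAF1A library 1 for SIM2 and without si-CHAF1A library 3 for PAX9). The remaining calls were IRX5, PAX8 and TBX2, at -0.73, 0.31 and 0.63 (adjusted p = 0.0231, 0.0338 and 0.0495). Leaving out si-CHAF1A library 2 ended each of these calls as well. With DESeq2 the count was 5 higher and 4 lower, where 34.7% of all tested genes were called instead of 37.8%. Without si-CHAF1A library 2 it was 5 higher and 1 lower, with 28.6% called over all genes. Without si-CHAF1A library 3 it was 5 higher and 2 lower, with 28.9% called. The 64 untested genes of this list summed to 43, 85 and 47 counts in si-Ctrl and 100, 68 and 86 in si-CHAF1A, with overlap between the groups. They include the cell cycle genes CDKN2A, CDKN2B, CDKN1C and CCND2. CDKN2A had 0 counts in every library and CDKN2B only 1, in si-CHAF1A library 1, so no change at this locus could be measured.

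**Figure D5:**
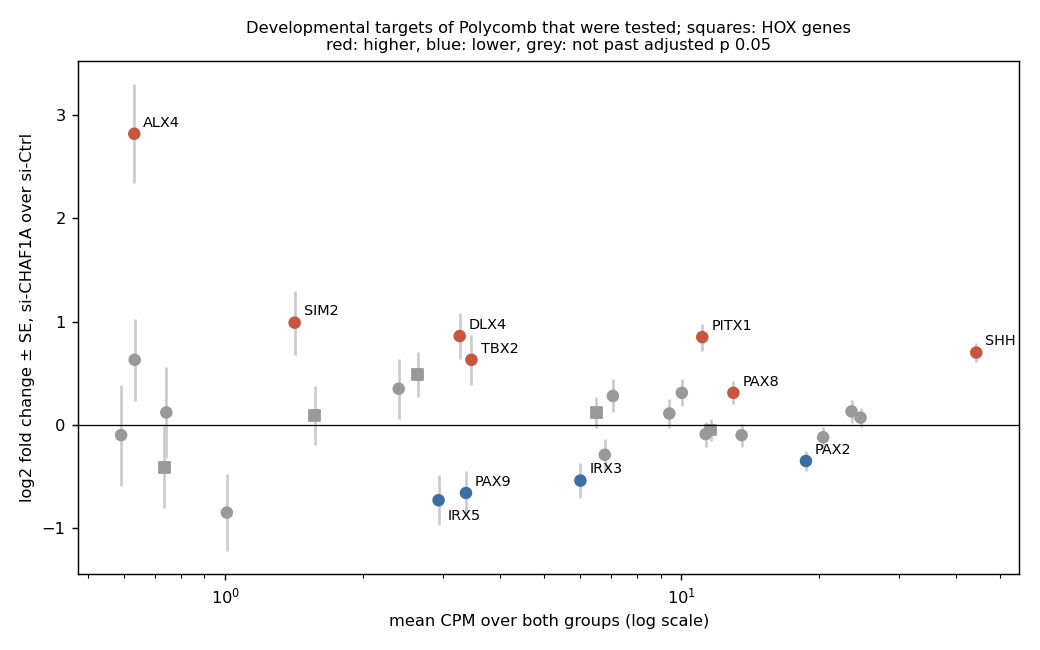
Log2 fold change of si-CHAF1A over si-Ctrl (y axis, bars ± 1 SE) against the mean CPM of both groups (x axis, log scale) for the 30 tested HOX (squares) and other developmental genes (circles); red is higher, blue lower and grey not past an edgeR adjusted p of 0.05. SHH and PITX1 rise at well-measured levels, ALX4 at 2.82 is among the lowest in CPM, and every HOX gene is grey.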

How the data were processed

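RNA of 6 RBE samples was sequenced with 150 bp reads from libraries described as strand-specific. The authors deposited gene-level read counts as 1 table of whole numbers. The tools fastp 0.20.1, HISAT2 2.1.0, SAMtools 1.9, featureCounts 2.0.1 and StringTie 2.1.4 and the build hg38 are named, per the submitters' processing notes. The annotation release, the strand setting and the handling of multi-mapping reads are settings not given in the sources used here; they affect overlapping genes and pseudogenes. Columns named NC and si were read as si-Ctrl and si-CHAF1A with the same number, a reading that the labels do not state and on which the CHAF1A level bears. No column belonged to another sample (0).

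Computed here were edgeR 4.0.16 robust quasi-likelihood tests (R 4.3.3) with TMM factors and filterByExpr (minimum count 10, minimum total 15), fitted on all 15911 genes and checked on simulated data. Adjusted p is Benjamini-Hochberg over these genes (threshold 0.05), CPM uses TMM-scaled totals, and RPKM divides CPM by GENCODE 29 exon length. The SE of a log2 fold change was derived from the test, as its absolute value divided by the square root of the quasi-likelihood F statistic. The alternatives were other scaling factors and filters, DESeq2 1.42.0, a replicate block, single libraries left out, and readthrough and pseudogene counts added. The members and gene lists were chosen with earlier results of these data known. Named are all members, up to 8 called genes per list with the smallest adjusted p, the paralogs CBX6 and CBX7, 4 proliferation markers, the 3 genes most correlated with the member of smallest adjusted p, and overlapping genes or copies. Genes given without a call, the further target calls and COMMD3 were named after their values were seen. One gene and the results that need it are not reported here.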

Additional observations from a re-analysis of the deposited data

How the results depend on the processing

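Of 552 values of 42 named genes under up to 14 alternatives, 514 kept their direction and their side of the threshold, 27 no longer passed the test, 3 newly passed it and 8 changed sign. All 8 were RNF2, at 0.00 with DESeq2 and with its size factors in edgeR, 0.04 with upper-quartile factors, 0.05 with library size only, 0.03 with the stricter filter, 0.03 without si-Ctrl replicate 1, 0.04 without si-Ctrl replicate 3 and 0.03 without si-CHAF1A replicate 3, beside -0.09 without si-Ctrl replicate 2. With the replicate block the core subunits gave 4 calls, as without it, and the other developmental targets 10 (6 higher) instead of 11 (7 higher). Over all genes 33.9% were called with the block and 37.8% without it. The deviations of same-numbered libraries from their group means had correlations of -0.0859, -0.0643 and -0.0031. Pairs with different numbers gave -0.0255 to 0.0902. Values this close to 0 cannot say whether same-numbered samples were handled together. Leaving out single replicates moved the count of called genes from 3 to 6 for the core subunits, from 1 to 3 for the canonical PRC1 partners, from 6 to 12 for the variant PRC1 subunits, from 3 to 9 for the genes that remove marks and from 6 to 10 for the other developmental targets. Over all genes, 43.8% were called without si-Ctrl replicate 2 and 28.6% to 31.9% without any other. The cause of these moves was not tested. The planned shares of RING1 and of BMI1 against PCGF2 were not run, because RING1 and PCGF2 had 4 counts each. Without the low-count filter SUZ12 passed the test (adjusted p = 0.0276). Rows with few counts, such as ALX4 and the untested HOX genes, are limited by depth.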
